A study of Mus musculus with 10 samples.

Results

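The genes described here are the mouse genes whose symbol is Zfp followed by a number, 394 of the 21965 gene rows of the chromatin accessibility table. They were chosen by symbol alone, and Zfp42 was left out. RefSeq gave a single entry for 389 of the symbols. It gave none for Zfp969, Zfp986 and Zfp989, and 2 rows shared the symbol Zfp865.

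The assay was ATAC-seq, in which a transposase cuts and tags DNA that nucleosomes leave accessible. The cells were mouse embryonic fibroblasts (MEFs) from embryonic day 13.5, labelled with the strain ICR and described in the protocol as holding a GFP transgene under the Oct4 promoter. All were infected with retroviral pMXs vectors and kept in mouse embryonic stem cell medium, with about 50000 cells per library. Of the 10 conditions, the control carried Flag and 4 were labelled with a single factor: Sox2, Klf4, Oct4, or an Oct4 mutant, L80A. Another carried the 3 factors Sox2, Klf4 and Oct4 together (SKO), and another Sox2 and Klf4 with the L80A mutant (SKO-L80A). The rest were SKO with an shRNA against Brg1, SKO-L80A in medium with vitamin C at 50 µg/ml, and SKO-L80A with Gadd45a. Each condition had 1 library and 2 columns of values, a first and a second, whose relation the sources used here do not give. The columns were read as repeat measurements of 1 sample, so no condition had a replicate, no p-value was computed, and every difference compares libraries. These are bulk libraries, in which fewer cells with an accessible site and less accessibility per cell cannot be told apart.

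Most Zfp genes encode proteins with tandem C2H2 zinc fingers, each finger folding around a zinc ion and contacting a few bases of DNA. Many also carry a KRAB domain, which binds the corepressor Trim28 (KAP1), and Trim28 in turn brings in the histone methyltransferase Setdb1. KRAB zinc finger proteins are known for silencing endogenous retroviruses and other transposable elements and for protecting imprinted methylation. The genes multiplied by tandem duplication, so many stand in clusters of close relatives. A minority of Zfp symbols belong to other kinds of zinc finger protein, such as the CCCH proteins of the Zfp36 family, which bind AU-rich elements in mRNA and speed its decay.

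The promoters below carry the 3 patterns described here, 5′ to 3′ on the gene's strand, in RefSeq's GRCm38.p6. Each runs from 250 bases before to 50 bases after a start taken from the promoter set used. That start need not be the outer end of the RefSeq gene: the windows of Zfp78, Zfp687 and Zfp968 lie inside the gene. The first pair belongs to Zfp28 (chr7:6383068-6383367, plus strand) and its neighbour Zfp78 (chr7:6363058-6363357, plus strand), both lower with Klf4. Capitals mark CACCC, the core of a Klf site, on either strand (GGGTG on the strand shown).
Zfp28: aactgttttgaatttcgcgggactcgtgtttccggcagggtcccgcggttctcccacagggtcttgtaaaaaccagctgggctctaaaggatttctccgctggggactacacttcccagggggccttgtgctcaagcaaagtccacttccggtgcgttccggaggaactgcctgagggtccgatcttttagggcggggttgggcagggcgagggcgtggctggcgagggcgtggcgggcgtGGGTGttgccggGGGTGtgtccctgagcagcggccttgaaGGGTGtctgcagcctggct
Zfp78: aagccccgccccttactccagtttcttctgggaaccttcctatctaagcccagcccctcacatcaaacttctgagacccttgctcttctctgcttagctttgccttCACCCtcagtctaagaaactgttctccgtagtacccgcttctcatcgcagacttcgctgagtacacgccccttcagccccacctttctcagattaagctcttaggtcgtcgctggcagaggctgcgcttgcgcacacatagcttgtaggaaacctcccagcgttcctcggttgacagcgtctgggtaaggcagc
The next is Zfp687 (chr3:95015408-95015707, minus strand), the Zfp gene with the highest signal. The last pair, Zfp967 (chr2:176520754-176521053, plus strand) and Zfp968 (chr2:175372186-175372485, plus strand), comes from a group of near-identical copies with almost no signal. In these 3 promoters capitals mark CG dinucleotides.
Zfp687: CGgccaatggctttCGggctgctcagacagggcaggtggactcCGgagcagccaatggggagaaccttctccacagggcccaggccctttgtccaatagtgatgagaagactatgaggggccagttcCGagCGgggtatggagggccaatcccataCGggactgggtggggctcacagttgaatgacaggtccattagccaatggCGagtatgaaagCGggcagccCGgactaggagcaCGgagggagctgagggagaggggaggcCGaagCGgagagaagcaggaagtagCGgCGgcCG
Zfp967: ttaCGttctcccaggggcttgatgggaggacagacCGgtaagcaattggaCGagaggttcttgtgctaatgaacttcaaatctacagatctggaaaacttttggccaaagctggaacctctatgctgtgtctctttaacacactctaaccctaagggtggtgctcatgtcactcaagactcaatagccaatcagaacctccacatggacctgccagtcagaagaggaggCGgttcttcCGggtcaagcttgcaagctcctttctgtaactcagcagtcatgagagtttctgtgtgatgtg
Zfp968: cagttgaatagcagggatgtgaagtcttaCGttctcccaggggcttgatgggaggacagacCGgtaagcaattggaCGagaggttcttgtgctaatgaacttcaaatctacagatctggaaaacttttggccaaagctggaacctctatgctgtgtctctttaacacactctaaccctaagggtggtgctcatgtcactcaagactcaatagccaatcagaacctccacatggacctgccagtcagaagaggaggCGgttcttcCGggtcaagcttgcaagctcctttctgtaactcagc
Zfp28 held 3 CACCC matches and 20 CG dinucleotides, Zfp78 held 1 match and 13 CG, Zfp687 held 15 CG, and Zfp967 and Zfp968 held 5 CG each.

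Most Zfp genes lay in accessible chromatin in these cells. The median deposited signal of the Zfp genes, averaged over the 20 columns, was 12.04, against 7.69 for all genes, with an interquartile range of 5.86 to 19.1. A gene was called accessible where its mean signal was at least 6.92, which is the table's median value. By that measure 277 of 394 Zfp genes (70.3%) were accessible, against 52.1% of all genes. In the Flag library alone it was 64.5% of Zfp genes against 47% of all genes. Zfp genes accessible in every column numbered 142 of 394, against 6270 of 21965 for all genes. Below 6.92 in every column stayed 81 Zfp genes, against 8643 of all genes. The minimum was applied to deposited values, which were not scaled between columns here. The 20 columns summed to between 112439 and 370390, and because the deposited values carry no read counts, depth is unknown and no counting interval can be given.

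**Figure D1:**
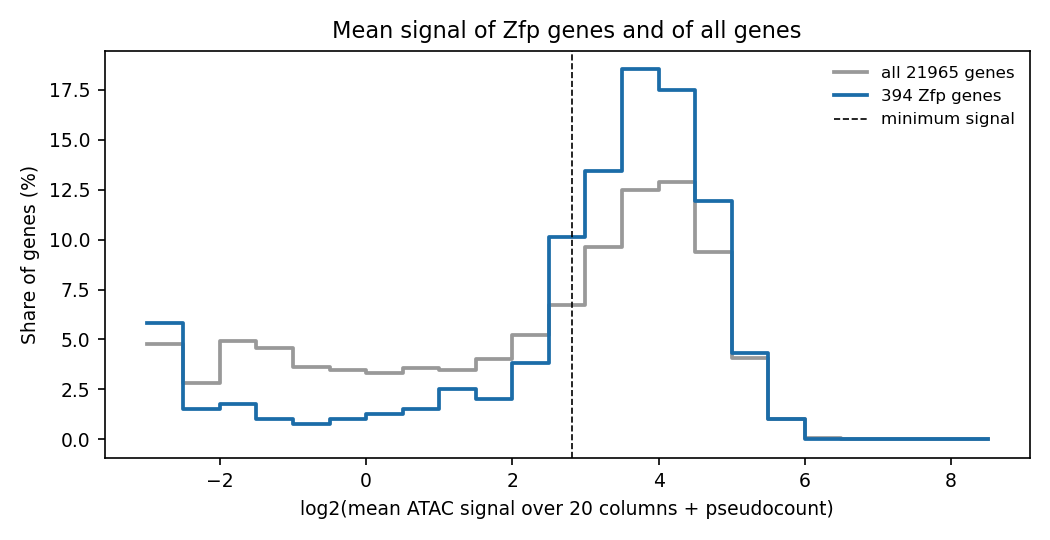
Distribution of the mean ATAC-seq signal (log2 scale, averaged over 20 columns) of the 394 Zfp genes beside all 21965 genes. The Zfp genes form one broad peak to the right of the accessibility minimum of 6.92 and a small separate group at the far left, near 0.

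Other families of zinc finger genes had different levels. The 41 Zbtb genes, whose proteins join a BTB dimerization domain to zinc fingers, had a median of 20.2, with 85.4% accessible. The 20 Zc3h genes, which encode CCCH proteins, had a median of 13.9 and 90% accessible. The 30 Zscan and Zkscan genes, whose proteins carry a SCAN domain, had a median of 8.57 and 56.7% accessible. The Zfp genes lay between the Zc3h and the Zscan and Zkscan genes by median. These are descriptions of gene groups of unequal size and were not tested.

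Zfp687, whose protein joins a complex with other zinc finger proteins and Zmynd8, had the highest mean signal, 51.4, with a lowest column of 26.2 and a highest of 78.9. Zfp143, a transcriptional activator that binds promoters and takes part in chromatin looping, followed at 49.0. Zfp574 was at 47.4, Zfp654 at 46.0 and Zfp78 at 44.7. Zfp654 had values within 5% of those of its neighbour Cggbp1 in every column, so its level cannot be told apart from that gene's. In all, 29 of 362 Zfp genes compared with their neighbours had such a partner within 200 kb, among them the Zfp pairs Zfp668 and Zfp646, and Zfp27 and Zfp383.

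At the other end, 24 Zfp genes (6.09%) had a signal below 0.138 in every column, a share close to the 5.27% of all genes. In each column the commonest single value, between 0.0004 and 0.0061, was shared by 510 to 598 genes, and 8 to 13 of these were Zfp genes. Zfp967, Zfp968, Zfp969 and Zfp973 held that value in every column. It is treated here as the floor of the table, and these genes are given as listed at it.

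These near-silent genes were crowded into a few places. Of the 24, 10 lay on chromosome 4 between 145510759 and 147702631 and 6 on chromosome 2 between 175372034 and 177925650 (GRCm38.p6). Another 3 were on chromosome 17, 2 on chromosome 10, and 3 had no position. The chromosome 4 stretch held 14 Zfp genes, of which 0 were accessible, and 3 other genes, also 0 accessible. The chromosome 2 stretch held 7 Zfp genes, 0 of them accessible, and 23 other genes, of which 15 were below 0.138 in every column and 1 was accessible.

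They also shared promoter sequence with other genes. For each promoter the share of its 31-base words that recur in a promoter elsewhere in the genome was counted. Among the 17 near-silent Zfp genes with a promoter entry the median share was 95.6%, and 14 of them (82.4%) shared 50% or more. Among 78 other Zfp genes below the minimum it was 12 (15.4%), and among 229 accessible Zfp genes 1 (0.437%), against 4.71% of all genes. Zfp967 and Zfp966 were identical over all 300 promoter bases, and Zfp968 and Zfp973 differed at 1. The sources used here do not say how reads that match several copies were counted. The signal of these copies is therefore uncertain, and the part of unplaceable reads in it was not tested.

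Zfp genes were unevenly spread over the genome, with 91 of the 389 placed genes (23.4%) on chromosome 7, 46 on chromosome 17 and 36 on chromosome 13. On chromosome 7 76 of 91 were accessible, on chromosome 9 all 19, and on chromosome 4 8 of 28. Runs of at least 5 Zfp genes, each within 200 kb of the next Zfp gene, numbered 16 and held 152 genes. In 6 of the runs every gene was accessible, and in 1 none was.

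The runs differed widely in level. The run from Zfp787 to Zfp28 (chr7:6131489-6396637) had 6 genes with a median of 24.2, all accessible. A longer run (chr7:29768552-30169775) had 15 genes with a median of 15.1, 14 of them accessible. The longest, 23 genes (chr13:67038594-67827000), had a median of 6.04 and ran from 0.108 to 26.1, with 10 accessible. A run of 18 (chr17:21383707-22456689) had a median of 7.28, with 9 accessible. The run from Zfp992 to Zfp933 (chr4:146449030-147849126) had 12 genes with a median of 0.0377, and none reached the minimum. Accessibility thus varied within runs as well as between them: the run of 5 at chr8:69610654-69774911 had a median of 33.4 yet held Zfp869 at 0.131.

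**Figure D2:**
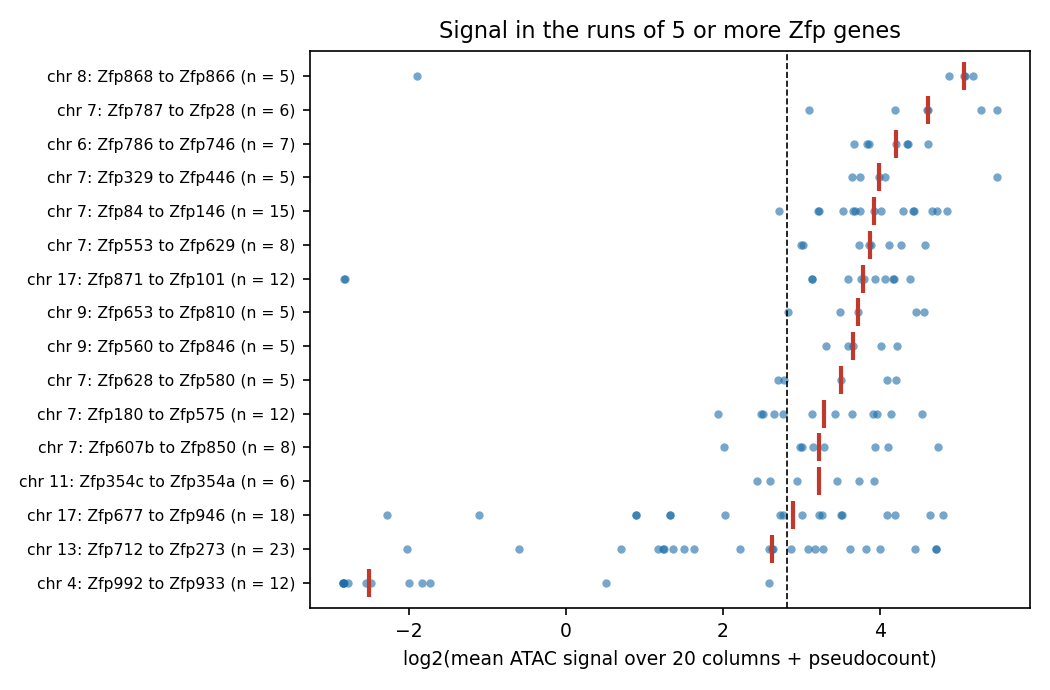
Mean signal (log2 axis, averaged over 20 columns) of each Zfp gene in the 16 runs of at least 5 neighbouring genes. Points are genes, and the chromosome 4 run stands apart, with all 12 of its genes below the minimum of 6.92.

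The 146 Zfp genes that stood alone had a median signal of 14.1, with 77.4% accessible, against 11.1 and 67.1% for the 243 with a Zfp neighbour within 200 kb. Lone genes had a median of 18 CG dinucleotides in the promoter and clustered genes 11. Among Zfp genes with 5 to 14 CG in the promoter, 77.8% of the 27 lone genes were accessible and 60.3% of the 116 clustered ones. With 15 to 25 CG the shares were 85.7% and 83.1%. In the other 2 classes clustered genes had the higher share, 36.8% against 22.2% with 0 to 4 CG and 100% against 80.6% with 26 to 65 CG, so the order was not the same in every class.

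Signal followed promoter CG content in the Zfp genes, less steeply than in all genes. Zfp genes with 0 to 4 CG in the 300 bases had a median signal of 2.202 (28 genes), those with 5 to 14 CG 9.55 (143 genes), those with 15 to 25 CG 15.0 (114 genes) and those with 26 to 65 CG 15.95 (39 genes). The same CG classes of all genes had medians of 0.362, 5.82, 14.9 and 16.4. Zfp genes with few CG were thus higher than other genes of that class, and those with many CG were level with them. In the lowest class 32.1% of Zfp genes were accessible against 9.53% of all genes. Across genes Spearman's rho between CG count and signal was 0.42 for 324 Zfp genes and 0.68 for 16417 genes, points that share libraries and base composition.

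**Figure D3:**
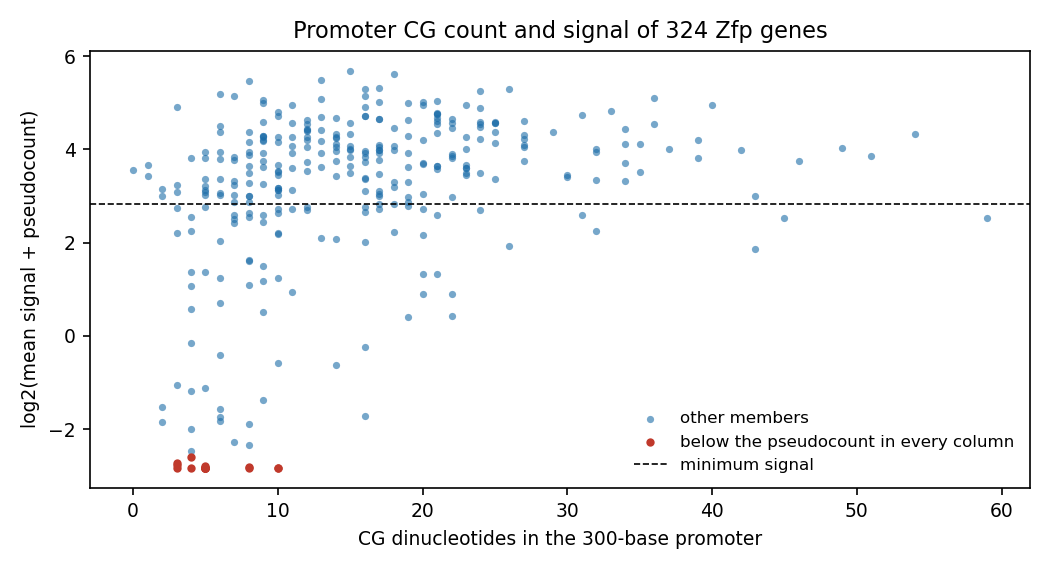
Mean signal (log2 axis, averaged over 20 columns) of 324 Zfp genes against the number of CG dinucleotides in the 300-base promoter. Points are genes, and signal rises from a median of 2.202 at 0 to 4 CG to 15.0 at 15 to 25 CG.

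Letters of the 3 factors' motifs were about as frequent in Zfp promoters as in all promoters of the table. ATGCNAAT, an octamer as bound by Oct4, was in 4.01% of Zfp promoters and 2.86% of all, on either strand. ACAANG, a Sox core, was in 38% of each. CACCC was in 55.9% against 59.1%. A match is a description of letters in this window and not a site.

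By role, Zfp genes with known repressor functions ran from the floor to 28.8. Zfp568, which represses a placental Igf2 transcript, had a mean signal of 28.8, and Zfp809, which binds the primer binding site of murine leukaemia viruses and silences them, 23.4. Across the 10 conditions Zfp809 ranged over 0.16 on the log2 scale. Zfp445 and Zfp57, which protect imprinted methylation, were at 11.5 and 8.20. Zfp819, which represses retrotransposons, was at 8.09. Zfp600 at 0.006 and Zfp989 at 0.009 were near the floor. Of the 10 genes of this list 6 were accessible.

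Of 10 Zfp genes tied to pluripotency and reprogramming 9 were accessible by the mean over the 20 columns, where 70.3% of all Zfp genes were. They ran from Zfp143 at 49.0 through Zfp281, a factor of the pluripotency network, at 13.3, to Zfp462 at 8.06. The exception was Zfp296, a cofactor of reprogramming, at 1.18. In the Flag library alone the 10 genes ran from 1.02 to 46.4, with a median of 12.4. Of 10 genes of mesenchymal and neural development 8 were accessible. They included Zfp703 (21.8) and Zfp503 (19.4), related corepressors, and Zfp521 (17.0) and Zfp423 (11.9), related factors with opposed roles in fat cell commitment. Among CCCH genes Zfp36 was at 26.8, Zfp36l2 at 17.9 and Zfp36l1 at 15.8, and Zfp36l3 at 0.25. The partners of KRAB proteins were accessible in 15 of 17 cases, with Trim28 at 19.9 and Setdb1 at 3.15.

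Markers of the labelled cells were present. The 8 fibroblast marker genes lay between 4.23 and 22.2 in the Flag library, where 5 of them were accessible, and 0 of 5 pluripotent, 0 of 4 epithelial, 0 of 4 macrophage and 0 of 3 endothelial markers were. The macrophage marker Csf1r was at 6.65 in Flag, just under the minimum and above the lowest fibroblast marker. Relative to the median gene, the accessible fibroblast markers had a median difference from Flag of −0.30 with Sox2 (5 genes), −0.22 with Klf4 (5 genes) and −0.23 with SKO (6 genes). It was −0.32 in the library labelled Oct4 (5 genes) and −0.12 with Oct4 L80A (6 genes). With Oct4 L80A Thy1 went the other way, at 5.72 and 11.3 against 3.01 and 5.46 in Flag (1.12). The deposited signal summed over the list was 86.6 in Flag, 61.9 with Sox2, 71.2 with Klf4, 83.3 in the library labelled Oct4 and 73.8 with Oct4 L80A. With SKO it was 104, where the median gene itself stood 0.53 higher on the log2 scale. With SKO 1 of 4 epithelial markers, Krt8 (1.23), and 1 of 4 macrophage markers, Csf1r (0.82), were accessible and higher than in Flag. In Flag both were below the minimum, with Krt8 at 1.68 and 3.14, so they were counted only through SKO, where they were higher. The rest of both lists stayed below the minimum with SKO and carry no call. Csf1r was also higher in the library labelled Oct4 (0.90). The part of these in the results was not tested.

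The delivered genes were read in every library as a check of the labels. The library labelled Oct4 had signals of 30.8 and 24.2 at the Oct4 gene (Pou5f1), against 0.812 and 1.12 in Flag. It also had Sox2 signals of 62.9 and 55.2, against 2.73 and 5.12 in Flag and 75.5 and 87.1 in the Sox2 library. Because it held signal for both genes, it is called by its label throughout. The library labelled Gadd45a had Gadd45a signals of 36.6 and 41.5, not above the 37.3 and 52.1 of SKO-L80A, so it too is called by its label. An shRNA does not alter the signal at its target by design, so Brg1 (Smarca4) checks nothing here.

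Few Zfp genes differed between conditions by as much as 2-fold. Differences are given as log2 of signal plus 0.138, each column minus the median of all genes in that column, averaged over both columns, for genes that reached 6.92 in at least one condition of the comparison. A gene could thus enter a comparison through only the library where it was higher. The median of all genes itself moved by between −0.74 and 0.97 between compared columns, so a difference is relative to the median gene. Under a 2-fold rule 2 of 308 Zfp genes (0.649%) passed in any of the 10 comparisons, against 3.42% of all genes. They were Zfp28 and Zfp286, both lower with Klf4. Under a milder rule, at least 1.5-fold with both columns the same way, 28 Zfp genes (9.09%) passed, against 13.4% of all genes. Over Zfp genes the 2 columns of a comparison were related with Pearson's r from −0.02 (SKO-L80A against SKO) to 0.64 (Klf4 against Flag), a description, so small differences are imprecise. The spread of accessible Zfp genes over the 10 conditions was like that of all accessible genes, with a median range of 0.45 against 0.43. Comparisons with Flag share that library, and their values stand side by side without a measure of overlap.

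**Figure D4:**
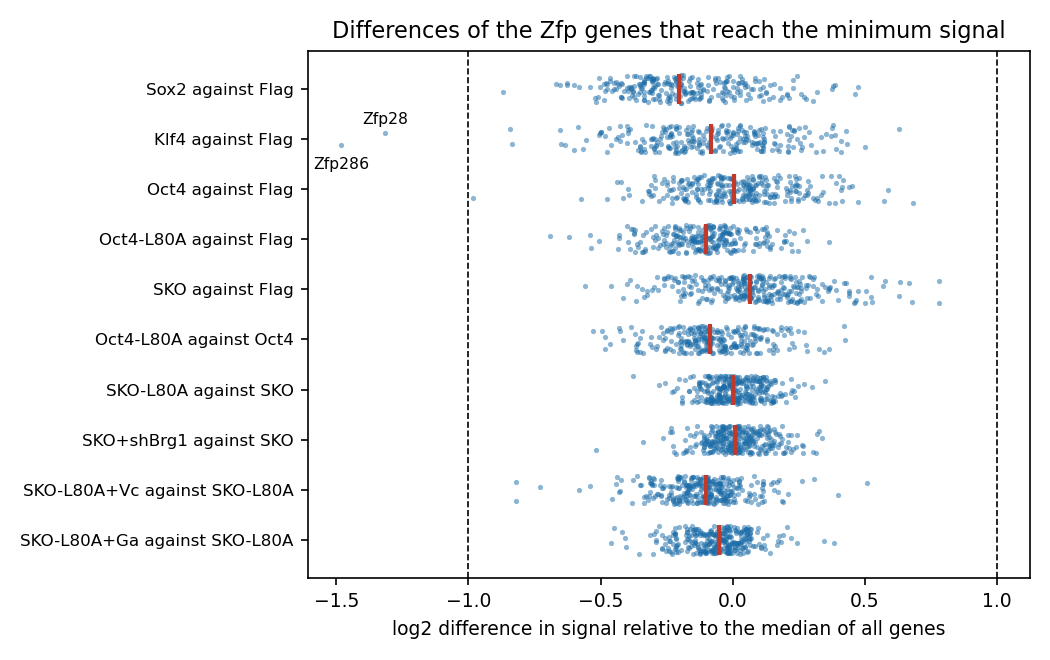
Log2 differences in signal (centred on the median gene, mean of both columns) of accessible Zfp genes in each of the 10 comparisons. Points are genes, red bars their medians and dashed lines the 2-fold rule, which only Zfp28 and Zfp286 pass, both at the left of the Klf4 row.

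Zfp28 and Zfp286 were lower in the Klf4 library than in Flag. Under the 2-fold rule 2 of 263 accessible Zfp genes were lower and 0 higher, where 1.75% of all genes passed, 1.43% higher and 0.318% lower. In the first column Zfp286 stood below the minimum in both libraries, so that column alone called 1 gene. The median Zfp difference was −0.08, and that of all genes −0.10.

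Zfp28 (ENSMUSG00000062861, chr7:6383206-6396637), a KRAB zinc finger gene, had signals of 12.2 and 21.1 in Flag and 5.10 and 8.26 with Klf4. Sox2 gave 11.4 and 20.9, the library labelled Oct4 19.2 and 27.7, and Oct4 L80A 9.31 and 24.6. SKO gave 28.8 and 20.03, SKO-L80A 20.4 and 23.6, and SKO with shBrg1 27.1 and 20.04. Vitamin C gave 13.5 and 13.8 and the library labelled Gadd45a 18.8 and 16.6. Klf4 was the lowest of the 10 libraries in both columns, and no other library overlapped it within a column. The difference from Flag was −1.31 (−1.36 and −1.27 in the columns), 2.49-fold lower. In SKO, which also received Klf4, the difference from Flag was 0.05. The Klf4 gene itself had signals of 166 and 146 in the Klf4 library but 78.5 and 66.6 in SKO, so the 2 libraries are not alike in it. The part of this in the Zfp28 values was not tested.

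Zfp286 (ENSMUSG00000047342, chr11:62751951-62789506), also a KRAB zinc finger gene, had signals of 5.81 and 10.6 in Flag and 1.60 and 4.73 with Klf4. Sox2 gave 3.73 and 10.7, the library labelled Oct4 5.78 and 8.02, and Oct4 L80A 4.22 and 8.80. SKO gave 9.59 and 7.85, SKO-L80A 8.34 and 9.97, SKO with shBrg1 10.1 and 8.38, vitamin C 6.93 and 5.69, and the library labelled Gadd45a 7.87 and 5.46. Klf4 was again lowest in both columns, narrowly in the second, where the library labelled Gadd45a followed. The difference from Flag was −1.48 (−1.90 and −1.07), 2.79-fold lower, and in SKO it was −0.39.

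**Figure D5:**
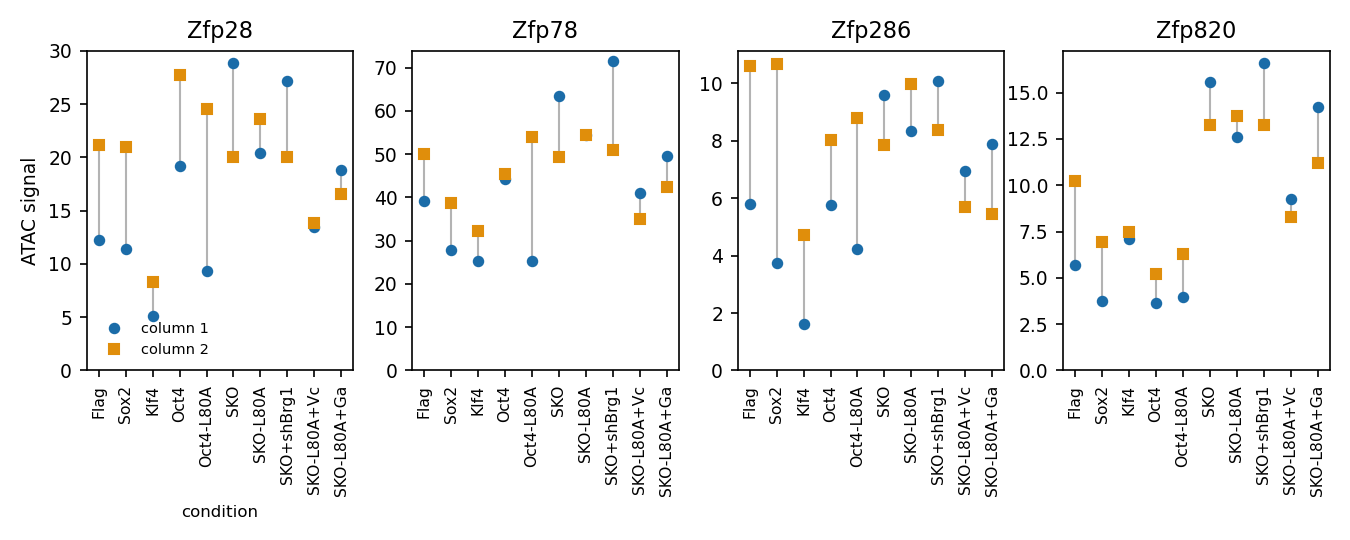
ATAC-seq signal of Zfp28, Zfp78, Zfp286 and Zfp820, with both columns of each of the 10 conditions as points. Zfp28 and Zfp286 are lowest with Klf4 in both columns, at 5.10 and 8.26 and at 1.60 and 4.73.

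The accessible neighbours of Zfp28 were all lower with Klf4, and those of Zfp286 were mixed. Zfp28 starts 600 bases after the end of Zfp78. Within 300 kb of it 6 other genes were accessible, and all 6 were lower with Klf4 (median −0.49), where 63.0% of all accessible genes lay below 0. Zfp78 was at 39.2 and 49.9 in Flag and at 25.4 and 32.3 with Klf4 (−0.65). Zfp787 was at −0.60, Zfp583 at −0.59, Zfp444 at −0.40, Zfp667 at −0.33 and the imprinted zinc finger gene Zim1 at −0.24. In SKO these differences from Flag lay between −0.40 (Zfp583) and 0.26 (Zfp667). Around Zfp286 8 genes were accessible, with a median of −0.02 and 5 of 8 below 0. These are not 8 separate signals. Ncor1 and Pigl had nearly the same values (−0.017 each), as did Lrrc75a (0.159) and Mmgt2 (0.154). Tvp23b was at −0.59, Ubb at −0.34 and Zfp287 at −0.15.

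Under the 1.5-fold rule, which 6.58% of all genes passed with Klf4, 9 Zfp genes were lower and 1 higher. Beside those named, Zfp316 was at 6.62 in both columns against 10.2 and 13.5 in Flag (−0.84). Zfp628 was at 5.56 and 4.73 against 6.54 and 12.6 (−0.83), with unequal columns of −0.36 and −1.31. Zfp113 (−0.65) and Zfp106 (−0.64) were also lower. Zfp995 alone was higher, at 9.25 and 10.9 against 4.31 and 9.28 (0.63). Of all genes 2.58% were lower and 4% higher by this rule, so the lower calls outnumber the higher ones among Zfp genes and not among all genes. That contrast rests on 10 calls and was not tested. The lower calls are not spread evenly either, since Zfp787, Zfp583, Zfp78 and Zfp28 lie in 1 run on chromosome 7. With quantile scaling Zfp78 (−0.41), Zfp787 (−0.50) and Zfp995 (0.58) fell short of 1.5-fold.

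With Sox2 alone the Zfp genes lay slightly lower. Of 258 accessible Zfp genes 0 passed 2-fold (0.347% of all genes passed). The median was −0.20 against −0.14 for all genes, and 78.7% of Zfp genes lay below 0, against 72.3%. Zbtb genes had a median of −0.21, Zscan and Zkscan genes −0.24 and Zc3h genes −0.16. The lower level was thus shared by Zbtb, Zscan and Zkscan genes, while the Zc3h genes lay nearer all genes. The 1.5-fold rule, which 2.56% of all genes passed (0.805% higher, 1.75% lower), called 6 lower and 0 higher. The lowest was the retrotransposon repressor Zfp819, at 2.33 and 5.32 against 5.68 and 8.63 in Flag (−0.87). Zfp36l2, the mRNA decay factor, was at 8.07 and 12.8 against 13.7 and 20.6 (−0.63). Zfp790 (−0.67), Zfp128 (−0.65), Zfp946 (−0.63) and Zfp472 (−0.60) were the others. With quantile scaling Zfp36l2 (−0.52), Zfp790 (−0.46), Zfp128 (−0.54) and Zfp472 (−0.47) fell short of 1.5-fold.

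In the library labelled Oct4 0 of 276 accessible Zfp genes passed 2-fold (0.495% of all genes), and the Zfp median was 0.01 against 0.05. By the 1.5-fold rule, passed by 2.77% of all genes (2.16% higher, 0.611% lower), 2 were higher and 1 lower. Zfp553 was higher, at 18.4 and 23.5 against 8.65 and 14.6 (0.68), and so was Zfp30 (0.59, or 0.48 with quantile scaling, short of 1.5-fold). Zfp820 was at 3.66 and 5.23 against 5.70 and 10.2 (−0.98), just short of the 2-fold line. In the 5 libraries with SKO or SKO-L80A Zfp820 lay between 8.29 and 16.6. It was at 3.77 and 6.91 with Sox2, 7.07 and 7.48 with Klf4, and 3.98 and 6.30 with Oct4 L80A. These are deposited values, and the median gene was also higher with SKO. On the log2 scale relative to the median gene, Zfp820 was at 0.39 in Flag. In those 5 libraries it lay between 0.42 (SKO-L80A) and 0.67 (the library labelled Gadd45a).

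With the Oct4 L80A mutant 0 of 255 accessible Zfp genes passed 2-fold against Flag (0.0383% of all genes). Zfp941 (−0.69) and Zfp300 (−0.62, or −0.54 with quantile scaling, short of the rule) were lower by 1.5-fold, a rule passed by 0.767% (0.0863% higher, 0.681% lower). Set against the library labelled Oct4, the mutant gave 0 of 267 past 2-fold (0.41%) and 0 past 1.5-fold (1.77%), with a median of −0.09 against −0.11 for all genes.

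With SKO more Zfp genes were above the minimum, 77.2% against 64.5% in Flag, as were more genes at large, 56.7% against 47%. Relative to the median gene, 0 of 304 Zfp genes passed 2-fold (2.35% of all genes did). The median was 0.07 in both, but the upper end was flatter for Zfp genes, with a 90th percentile of 0.34 against 0.50. Left as deposited, without centring, 14 Zfp genes were higher and 0 lower, against 11% of all genes called. The median gene itself stood 0.97 above Flag in the first column and 0.09 in the second.

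By the 1.5-fold rule, passed by 8.1% of all genes (7.41% higher, 0.697% lower), 6 Zfp genes were higher with SKO and 0 lower. Zfp879 was at 9.78 and 6.36 against 2.19 and 4.35 in Flag (0.78), and Zfp105 at 11.2 and 10.3 against 2.90 and 6.17 (0.78). Zfp747 was at 26.0 and 17.8 against 7.65 and 11.1 (0.68). Zfp69, a KRAB gene linked to diabetes susceptibility in mice, was at 23.0 and 20.2 against 7.34 and 11.9 (0.67). Zfp553 (30.9 and 20.9, 0.63) and Zfp442 (7.63 and 6.26 against 1.99 and 4.57, 0.63) were the others. Zfp879, Zfp105 and Zfp442 were below 6.92 in both Flag columns, so they entered this comparison only through SKO, where they were higher. With quantile scaling all 6 fell short of 1.5-fold, between 0.42 (Zfp442) and 0.57 (Zfp105).

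Exchanging Oct4 for L80A, adding shBrg1 or, by label, adding Gadd45a came with 0 Zfp genes past either rule. With the L80A mutant in place of Oct4, 0 of 308 Zfp genes passed 2-fold (0.0158% of all genes) and 0 passed 1.5-fold (0.0317%), with a median of 0.00. With shBrg1, against the ATPase of the BAF remodelling complex, 0 of 306 passed either rule (0.00781% of all genes by each), with a median of 0.01 against 0.03. The library labelled Gadd45a, a stress protein implicated in DNA demethylation, had 0 of 304 past 2-fold (0% of all genes) and 0 past 1.5-fold (0.048%), with a median of −0.05 in both. With 1 library each, these counts do not show that the conditions act alike.

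With vitamin C, a cofactor of TET and JmjC enzymes, 0 of 304 Zfp genes passed 2-fold against SKO-L80A (0.016% of all genes). Below 0 lay 83.6% of Zfp genes and 74.2% of all genes, with medians of −0.10 and −0.08. By 1.5-fold, passed by 0.593% (0.12% higher, 0.473% lower), 3 were lower. Left as deposited, without centring, 5 were lower by 2-fold (1.64%, against 0.825% of all genes). Zfp106, an RNA-binding protein needed in muscle and motor neurons, was at 5.72 and 4.32 against 12.9 and 11.96 (−0.82). Zfp994 was at 3.11 and 4.36 against 7.33 and 11.7 (−0.82), and Zfp11 at 4.84 and 3.24 against 8.26 and 10.5 (−0.73).

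In the 4 role lists of Zfp genes and in the list of KRAB partners 0 genes passed 2-fold in any comparison, where 3.42% of all genes did. The list medians with SKO were 0.13 for the repressors (6 accessible), 0.06 for pluripotency (9), 0.14 for development (9) and −0.07 for CCCH (3), beside 0.07 for all accessible genes. With Klf4 they were 0.12, −0.22, −0.14 and −0.13, beside −0.10.

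Several Zfp genes below the minimum had larger ratios, which rest on small signals and carry no call. Zfp984, from the chromosome 4 cluster, was at 0.567 and 0.196 in Flag and 3.28 and 2.03 with SKO. It was between 0.211 and 0.582 in the 4 libraries labelled with 1 factor, and between 0.856 and 3.75 in the other libraries with the factor mix. Zfp772 was at 0.322 and 1.132 in Flag, 2.29 and 2.54 with Klf4 and 2.57 and 2.45 with SKO. Zfp984 and Zfp772 share 33.7% and 63.3% of their promoter words with other promoters, and the part of reads from copies in their values was not tested.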

How the data were processed

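ATAC-seq signal was measured in 10 libraries, 1 per condition, with 2 columns each. The values are the authors' deposited signal density per gene; the sources used here give neither window nor scaling. Per the submitters' processing notes, the build was mm10 and the tools included DESeq2 1.22.2, bedtools 2.25.0, MACS2 2.1.0, SAMtools 1.3.1, Bowtie2 2.2.5, cutadapt 1.13 and Trimmomatic 0.35, with deepTools and Picard; their roles are not stated. Depth is unknown.

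Differences were log2 of signal plus 0.138 (the 10th percentile of values above 0), centred per column on the median of all genes and averaged over columns. A gene was called at 2-fold if the higher condition mean reached 6.92. The 1.5-fold rule was chosen after seeing the data. Genes named are those past a rule, the 5 highest, lowest and most variable, the role lists, and examples below the minimum. The members and lists were chosen with earlier results of these data known. No column was left unused. Positions and promoters came from RefSeq GRCm38.p6, with 324 promoters found and 70 not; protein features were not analysed here. The calculation was tested on simulated data. Alternatives were no centring, quantile scaling, other pseudocounts, no minimum and each column alone. Python 3.11.15, numpy 2.4.6, pandas 2.3.3, scipy 1.17.1 and matplotlib 3.10.9 were used.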

Additional observations from a re-analysis of the deposited data

How the results depend on the processing

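Counts of Zfp genes past 2-fold are given with the share of all genes under the same setting. Without a minimum signal they were 1 with Sox2 (1.61% of all genes), 4 with Klf4 (3.16%), 1 in the library labelled Oct4 (1.54%), 5 with SKO (5.41%), 3 for Oct4 L80A against the library labelled Oct4 (3.68%), 4 with vitamin C (2.08%) and 1 in the library labelled Gadd45a (0.269%). Without centring they were 14 with SKO (11%) and 5 with vitamin C (0.825%). Quantile scaling gave 1 in the library labelled Oct4 (0.468%). The first column alone gave 1 with Klf4 (2.06%) and 1 with SKO (3.56%), and the second 3 with Klf4 (1.81%) and 1 with vitamin C (0.117%). The 1.5-fold rule gave 6 with Sox2 (2.56%), 10 with Klf4 (6.58%), 3 in the library labelled Oct4 (2.77%), 2 with Oct4 L80A (0.767%), 6 with SKO (8.1%) and 3 with vitamin C (0.593%). The cause was not tested, apart from the gene and fold limits these settings set.

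The named differences, all chosen at 1.5-fold or more, kept their sign in 180 of 180 settings. Of these, 144 stayed within the spread of the columns. Both totals include settings fixed in advance. The 1.5-fold rule required both columns to go the same way, so the sign in either column alone was given. Leaving out the minimum returned the same values. Each of these settings counted 30 of 30 for sign and for spread, and does not test the differences. The sign also held in 30 of 30 without centring, with a larger pseudocount and with quantile scaling. There 12, 25 and 17 of 30, in that order, stayed within the spread. Of 30, 15 remained at 1.5-fold or more with quantile scaling, 28 without centring, 25 with a larger pseudocount, 26 in the first column and 21 in the second.

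No paired analysis was possible because each condition had 1 library. Depth is unknown, so small signals have no counting error.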
